A study of Mus musculus with 36 samples.

Results

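The cytosolic ribosomal protein genes were taken from a pair of mouse expression chips, 430A and 430B, by name. A gene was a member when a probe set (a group of short probes for 1 transcript) carried a single symbol made of Rpl or Rps and a number, with an optional a, x or l, or the symbol Rplp0, Rplp1, Rplp2 or Rpsa. Its mean signal over the 18 arrays of the chip also had to reach 20% of the chip's 2% trimmed mean. This gave 42 members, 20 of the small and 22 of the large subunit, among 14650 genes past the same filter. Another 4 genes with a matching name were dimmer. The members nearest inside the limit were Rpl12 and Rpl27a, with mean signals of 36.8% and 38.9% of the trimmed mean, and the genes nearest outside were Rpl14 and Rps4l, at 13.4% and 12.2%. Rpl3, Rpl5 and Rplp1 were not measured by a probe set with a single symbol, and 112 probe sets that name a ribosomal protein among several symbols were not used.

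The study followed male hearts of Tet-myrAkt1/αMHC-tTA mice, labelled DTG. In these mice a constitutively active, membrane-bound form of the kinase Akt1 can be switched on and off in heart muscle cells, because the tetracycline transactivator is driven by the cardiac myosin heavy chain promoter. All 5 groups carried both transgenes, so the uninduced hearts are the only baseline and no heart without the transgenes was compared here. The groups were 4 uninduced hearts of mice aged 12 weeks ("before induction"), 4 hearts after 2 weeks of induction at 14 weeks ("2 weeks on"), 4 hearts after 2 weeks of induction and 2 days of repression at 14 weeks and 2 days ("2 days off"), 3 hearts after 6 weeks of induction at 18 weeks ("6 weeks on") and 3 hearts after 6 weeks of induction and 2 weeks of repression at 20 weeks ("2 weeks off"). By the series' design text each hybridisation set came from an individual mouse. Age moved with the group throughout.

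Ribosomal proteins and ribosomal RNA build the small and the large subunit of the cytosolic ribosome, and cells keep the proteins in near-equal amounts. Akt activates mTORC1, the kinase complex that drives cell growth. In mammals the messenger RNAs of ribosomal proteins begin with a C followed by a run of pyrimidines, the terminal oligopyrimidine or TOP motif, through which mTORC1 raises their translation. Heart muscle growth needs new ribosomes, and in striated muscle Rpl3l can take the place of Rpl3 in the large subunit.

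The starts of 11 member genes are printed because the TOP motif lies at the first transcribed base. They show 6 starts with a pyrimidine run, among them Rplp2 of the P stalk, and 5 without, among them Rpsa, Rpl27 and Rps4x, whose values are given further on. Each window holds the 10 bases before and the 20 bases from the RefSeq start (build GRCm38.p6, most upstream start listed). Capitals mark a pyrimidine run of at least 6 bases within 3 bases of that start, as far as it lies in the window.
Rpl38, chr11:114668570-114668599 (plus strand): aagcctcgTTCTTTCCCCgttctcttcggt
Rpl35, chr2:39005112-39005141 (minus strand): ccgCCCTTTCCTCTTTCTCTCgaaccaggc
Rps10, chr17:27635225-27635254 (minus strand): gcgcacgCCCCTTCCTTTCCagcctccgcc
Rps18, chr17:33955646-33955675 (minus strand): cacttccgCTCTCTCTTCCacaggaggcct
Rplp2, chr7:141447641-141447670 (plus strand): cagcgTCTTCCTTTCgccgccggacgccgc
Rpl13a, chr7:45128726-45128755 (minus strand): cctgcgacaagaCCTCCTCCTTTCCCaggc
Rpsa, chr9:120127756-120127785 (plus strand): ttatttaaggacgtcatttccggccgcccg
Rpl27, chr11:101442235-101442264 (plus strand): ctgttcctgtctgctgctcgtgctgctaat
Rps4x, chrX:102189372-102189401 (minus strand): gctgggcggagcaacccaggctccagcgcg
Rpl3l, chr17:24727816-24727845 (plus strand): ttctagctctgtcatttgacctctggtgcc
Rps27l, chr9:66946076-66946105 (plus strand): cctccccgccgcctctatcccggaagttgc

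Among these windows the run was present in Rpl38, Rpl35, Rps10, Rps18, Rplp2 and Rpl13a, while none was found at the listed starts of Rpsa, Rpl27, Rps4x and the paralogues Rpl3l and Rps27l. RefSeq promoter windows of 300 bases (250 before and 50 from the start) were held for 37 of the 42 members, in 45 windows. A pyrimidine run at the start was found in 16 of the 37, or 43.2%, against 19.3% of all 27025 genes in the table. CTTT with its C within 3 bases of the start was found in 9 of 37 members, or 24.3%, against 3.74% of all genes, and these letters can be part of such a run. The ETS-type motif CCGGAAG, searched on both strands, lay in 19 of 37 members (51.4%) against 9.93% of all genes, and its reverse complement, CTTCCGG, begins with pyrimidines and so can overlap a run at the start. The YY1-type motif AAGATGGC, on both strands, lay in 3 of 37 (8.11%), namely Rpl13a, Rpl22 and Rps27, against 3.19% of all genes. These are matches of letters to annotated starts, which can differ from the starts used in heart.

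The libraries were first set against their labels. The brightest Akt1 probe set averaged 2878 ± 645 at 2 weeks on and 548 ± 69.7 before induction (SD, n = 4 each), and 2365 ± 542 at 6 weeks on (SD, n = 3). It averaged 718 ± 21.8 at 2 days off (SD, n = 4) and 753 ± 106 at 2 weeks off (SD, n = 3), and did not pass the test against the hearts before induction in either (adjusted p = 0.196 and 0.191, limma). Another Akt1 probe set did not follow the induction. Its mean and SD were 1044 ± 180 in uninduced hearts, but 878 ± 131 for the shorter and 708 ± 162 for the longer induction. In the repressed groups they were 956 ± 44 early and 1004 ± 136 late. The check of Akt1 against the labels therefore rests on the brightest probe set alone. All 9 cardiac muscle cell markers were measured in every heart. Hearts 3 and 4 before induction, labelled male, had signals of 5412.5 and 3271 for Xist, an RNA made from the inactive X chromosome, against 136 to 289 in the other 16 hearts. Heart 3 at 6 weeks on stood apart in RNA quality: its ratio of 3′ to 5′ signal was 3.71 for Actb and 1.54 for Gapdh on chip 430A, where the other 17 hearts had at most 1.92 and 1.11. Each result that rests on these 3 hearts is given with and without them where its count moved by over 1.5 times.

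All 42 members were represented on chip 430A, where the brightest probe set stood for a gene, and their mean signals ran between 184 and 16464 with a median of 7082. Signals of different probe sets are not comparable as levels. In 6 members the mean stayed under 1000, which were Rpl12, Rpl27a, Rpl39, Rps25, Rps27 and Rps6. Rps6 is the small-subunit protein that the S6 kinases downstream of mTORC1 phosphorylate, and its probe set averaged 275. Across the 18 hearts most members varied together. The correlation of a member with the median of the other members was at least 0.8 in 22 of 42 and highest in Rpl6 (r = 0.923, 18 hearts). It was under 0.4 in 7, among them Rpl12 (r = -0.255), Rps27l (r = 0.174), Rps27 (r = 0.218), Rpl4 and Rplp0. All points share the 18 arrays and their scaling, so these values describe the data and carry no test.

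**Figure D1:**
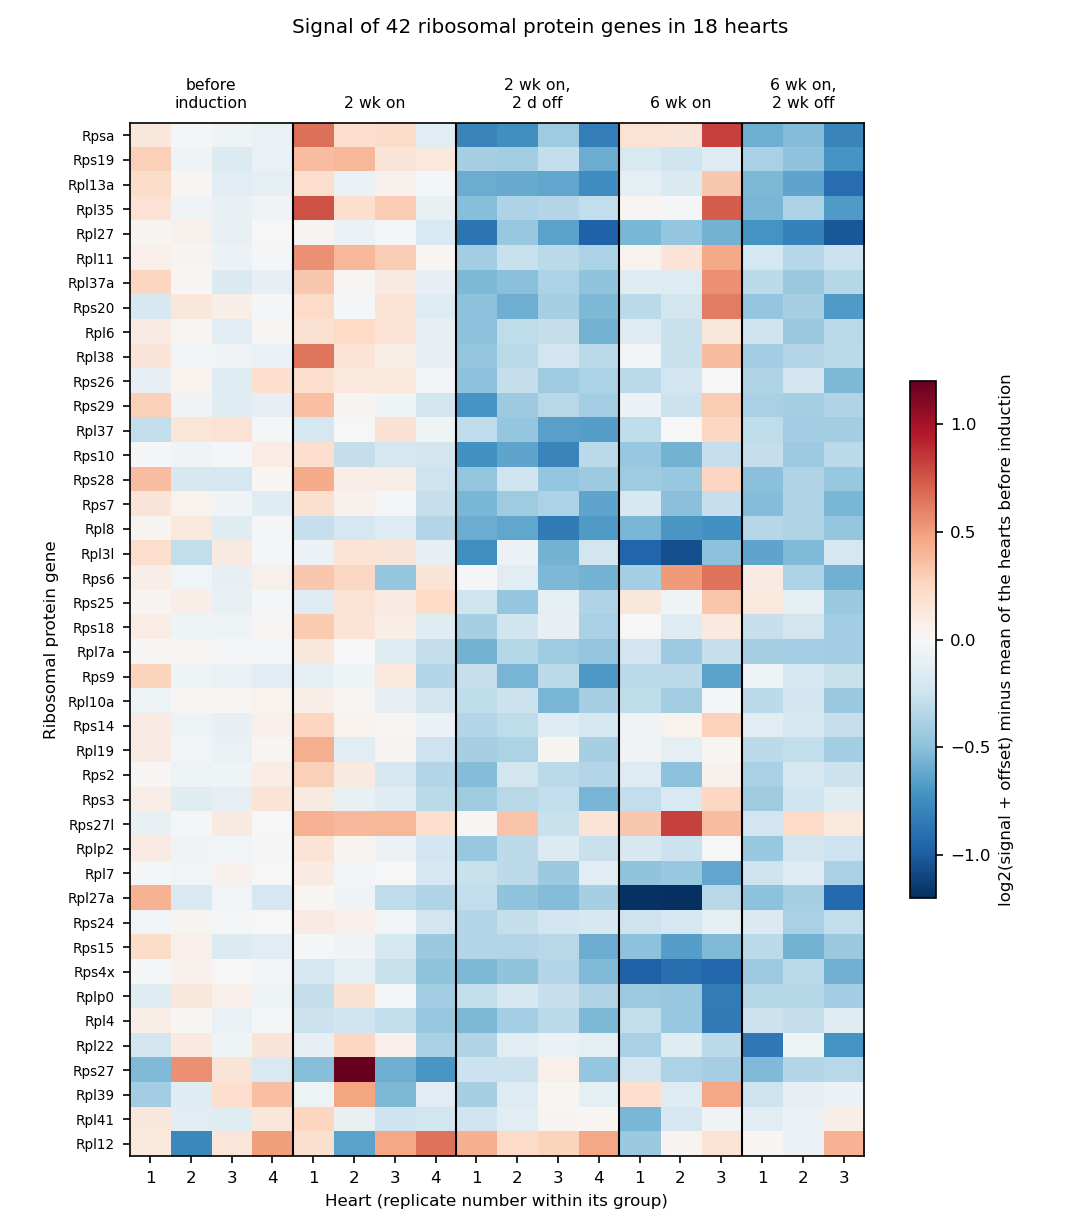
Each row is 1 of the 42 ribosomal protein genes and each column 1 of the 18 hearts, grouped by stage. Colour gives log2(signal + offset) minus the mean of the 4 hearts before induction, capped at 1.2 in either direction, and rows run by the log2 change at 2 days off over 2 weeks on. The columns at 2 days off and 2 weeks off are mostly blue, while heart 3 at 6 weeks on is redder than the other 2 hearts of its group.

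The median member showed the course of the whole group. Its log2 deviation from the mean before induction was 0.08, -0.02, -0.05 and -0.01 in the hearts before induction, and 0.19, 0.04, 0.01 and -0.21 at 2 weeks on. It was -0.42, -0.33, -0.33 and -0.40 at 2 days off. Values were -0.27, -0.25 and 0.02 at 6 weeks on and -0.34, -0.36 and -0.42 at 2 weeks off. All 7 repressed hearts therefore lay below all 11 others, and heart 3 at 6 weeks on lay among the hearts before induction. In the 2-days-off hearts 35 to 37 of the 42 members were below the lowest heart before induction, and 35 or 36 were in the 2-weeks-off hearts. This number was 5, 6, 15 and 26 at 2 weeks on and 27, 29 and 15 at 6 weeks on. The share of all chip genes below that lowest heart was not counted for single hearts. The 42 probe sets took up 1.58% to 1.68% of the chip's total signal at 2 days off and 1.6% to 1.7% at 2 weeks off, against 1.84% to 2.21% at 2 weeks on and 1.99% to 2.08% before induction. At 6 weeks on it was 1.73%, 1.74% and, in heart 3, 2%, so the first 2 of these hearts lay just above the repressed ones.

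**Figure D2:**
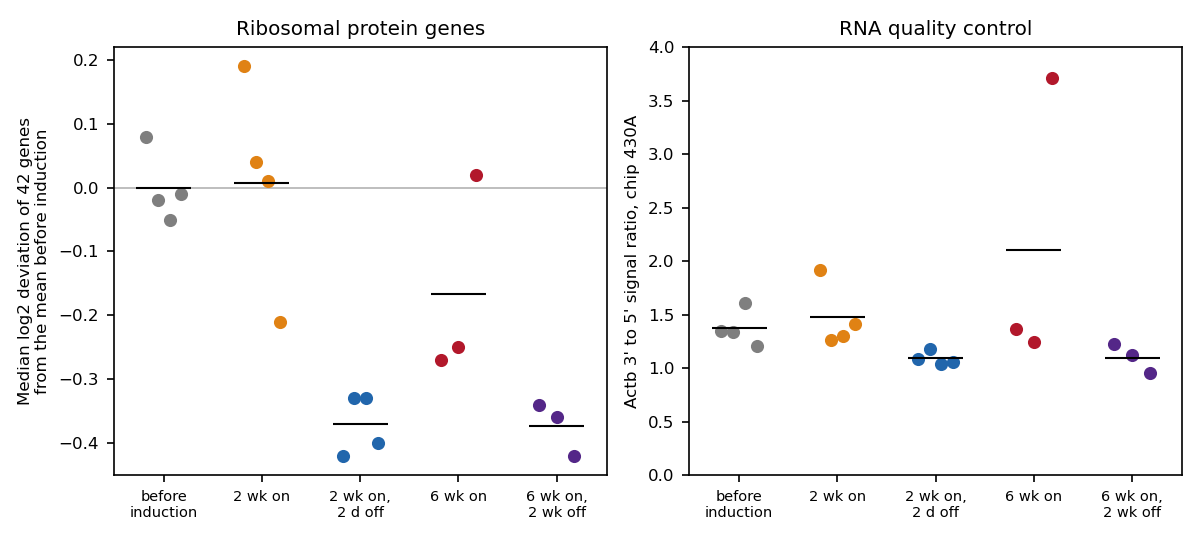
Each point is 1 heart and each bar the mean of its stage. The left panel gives the median log2 deviation of the 42 members from the mean before induction, which was -0.33 or lower in every repressed heart. The right panel gives the Actb 3′ to 5′ signal ratio on chip 430A, at most 1.22 in the repressed hearts and 3.71 in heart 3 at 6 weeks on.

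The RNA quality measures moved with the stages. The Actb ratio was 1.04 to 1.18 at 2 days off and 0.952 to 1.22 at 2 weeks off, against 1.26 to 1.92 at 2 weeks on and 1.21 to 1.61 before induction. The correlation of its log2 with the median member deviation was 0.601 over the 18 hearts, given as a description. The signal of the 5′ control probe set for 18S ribosomal RNA, the RNA of the small subunit, was 44 to 104 at 2 days off and 46.4 to 53.5 at 2 weeks off, against 128 to 206 at 2 weeks on and 174 to 311 before induction. It was 13.5 to 61.5 at 6 weeks on. The 3′ and middle control probe sets for this RNA on chip 430A overlapped between 2 days off and the unrepressed hearts. The 3′ one had 266.5 to 464.2 at 2 days off, against 301.8 to 495.6 at 2 weeks on and 301.2 to 547.1 before induction. It had 188.3 to 236 at 2 weeks off and 141.6 to 225.2 at 6 weeks on. The middle one had 16 to 104.8 at 2 days off, against 81.6 to 189 at 2 weeks on and 70.8 to 186.6 before induction.

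Sums of cell type markers are given beside these. The cardiac muscle cell sum (9 markers) was 153937 to 196550 at 2 days off and 163871 to 198564 at 2 weeks off, below all 4 hearts before induction, at 199367 to 260726. It was 164160 to 282489 at 2 weeks on and 137974 to 212821 at 6 weeks on. The median log2 change of these markers over before induction was -0.302 at 2 days off and -0.338 at 2 weeks off, with 8 of 9 below 0 in both, while the 1 marker called was Ryr2, a calcium release channel, which rose (1.05 and 1.19).

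Of the 7 fibroblast markers Col1a1, Col1a2 and Col3a1, which code for collagens, rose over before induction in all 4 other groups, with log2 changes of 0.69 to 1.31. The others were not called there. Below 0 were 3 of the 7 at 2 weeks on, 2 at 2 days off, 4 at 6 weeks on and 2 at 2 weeks off. The lowest log2 changes were -0.49, -0.21, -0.50 and -0.18. The sum of the 7 was 28944 to 36539 before induction, 34036 to 44412 at 2 weeks on and 34830 to 43790 at 6 weeks on. The summed signal of the 10 macrophage and leukocyte markers measured was 8094 to 11978 at 2 days off, against 7562 to 8174 at 2 weeks on. It was 8689 to 11606 at 2 weeks off, against 6077 to 8925 at 6 weeks on. Before induction it was 6725 to 9261, which overlaps both repressed groups, and none of the 10 was called in either over before induction. Lyz2, the lysozyme of macrophages, rose at 2 days off over 2 weeks on (0.73) and at 2 weeks off over 6 weeks on (1.15), where the leukocyte antigen Ptprc rose too (0.64). Of 8 endothelial markers 4 fell at 6 weeks on over before induction, where 11.7% of chip genes fell. The sum of the 8 was 6950 to 8378 at 6 weeks on, below the 9305 to 11738 of all other hearts. Of the 5 adipocyte markers 2 were measured, Adipoq and Retn, with a sum of 266 to 1927 at 2 days off and 370 to 1758 at 2 weeks off, against 131 to 247 at 2 weeks on, 66 to 221 at 6 weeks on and 184 to 760 before induction.

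None of the 5 atrial markers (Sln, Myl4, Dkk3, Myl7, Nppa) was called in any comparison. Their sum was 4517 to 43487 at 2 days off, 7118 to 47367 at 2 weeks off, 2647 to 15804 at 2 weeks on and 5794 to 16883 at 6 weeks on, all within the 1937 to 67378 before induction. No marker was listed at 0, and the lowest signals were 4.1 for Adipoq and 5.0 for Sln. The part of these cell types in the results was not tested. In pieces of whole heart, fewer cells of a type and less RNA per cell cannot be told apart.

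After 2 weeks of Akt1 no ribosomal protein gene passed the test against the hearts before induction by its brightest probe set. With limma, 0 members rose and 0 fell by these at an adjusted p under 0.05. At an unadjusted p under 0.05, 3 were higher and 3 lower, where 1031 of the 9276 genes of chip 430A were higher and 1079 lower. Of all 84 kept member probe sets 1 rose and 1 fell, so 2 members had a call by another probe set. Of all 9276 genes of chip 430A, 4.67% rose and 4.17% fell by their brightest probe sets at an adjusted p under 0.05. The median log2 change of the members was -0.016, against -0.042 over the genes of the chip. The small subunit had a median of 0.043 and the large subunit of -0.029.

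The members with the largest differences at 2 weeks were these. Rps27l, a paralogue of Rps27 and a p53 target, had signals of 3562, 3496, 3518 and 3086 at 2 weeks on, against 2502, 2613, 2868 and 2656 before induction. All 4 induced hearts were above all 4 hearts before induction, with a log2 change of 0.35 ± 0.14 (SE), which did not pass the adjustment (adjusted p = 0.124). Rpl11, which with Rpl5 and 5S ribosomal RNA binds and blocks the p53 regulator Mdm2, had 6222, 5580.3, 5245 and 4307 at 2 weeks on, against 4422, 4338, 4017 and 4151 before induction. Here heart 4 lay within the range before induction, and the log2 change of 0.32 ± 0.11 (SE) did not pass either (adjusted p = 0.0861). Rpl4, a large-subunit protein that reaches into the exit tunnel, had the lowest log2 change, -0.31 ± 0.11 (SE, adjusted p = 0.0888). Signals of Rpl4 were 9201, 9312, 8946 and 8028 at 2 weeks on, against 11621, 11093, 10370.0 and 10908 before induction, without overlap. The muscle paralogue Rpl3l averaged 3487 ± 345 at 2 weeks on and 3411 ± 506 before induction (SD, n = 4 each). Log2 changes were 0.24 in Rpsa, -0.14 in Rplp0, -0.02 in Rplp2, -0.12 in Rps27 and 0.07 in Rps6.

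Within 2 days of repression, 21 of the 42 members fell below their level at 2 weeks on and 0 rose. Of the genes of chip 430A, 7.87% fell and 7.36% rose. The median log2 change was -0.380 over the members and 0.038 over the chip, and 41 of 42 members were below 0. Calls were spread over both subunits, with 10 of 20 small-subunit members (median -0.381) and 11 of 22 large-subunit members (median -0.350). In 19 of the 42 members all 4 repressed hearts lay below all 4 induced hearts, against 10.8% of the chip's genes.

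Rpsa, a small-subunit protein that is also the precursor of a laminin receptor, changed most. Its signals were 3635, 3789, 4703 and 3539 at 2 days off, against 10042, 7304, 7375 and 5740.5 at 2 weeks on. The groups did not overlap, and the mean was 0.514 times that at 2 weeks on, a log2 change of -0.93 ± 0.16 (SE, adjusted p = 0.000962). Rps19, a protein of the small-subunit head that is mutated in Diamond-Blackfan anaemia in humans, had 2552, 2516, 2773 and 2227 at 2 days off, against 4399.6, 4475, 3767 and 3704 at 2 weeks on. This was a log2 change of -0.69 ± 0.11 (SE, adjusted p = 0.000767). No other small-subunit member was among the 6 largest falls.

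The other 4 of the 6 belonged to the large subunit. Rpl13a, which can leave the ribosome to silence inflammatory messenger RNAs, had 6218, 6186, 6083 and 5598 at 2 days off, against 10919, 8922, 9783 and 9244 at 2 weeks on (log2 change -0.68 ± 0.12, SE, adjusted p = 0.00121). Its second-brightest probe set had -0.15 and was not called (adjusted p = 0.321). Rpl35, a protein at the rim of the exit tunnel, had 4958, 5485, 5536 and 5771 at 2 days off, against 12066, 8168, 8784 and 6676 at 2 weeks on, where heart 1 was well above the others. Its log2 change was -0.68 ± 0.17 (SE, adjusted p = 0.00835). Rpl27 had 4558, 6119.7, 5397 and 4264 at 2 days off, against 8606, 8015, 8328 and 7427 at 2 weeks on, a log2 change of -0.68 ± 0.11 (SE, adjusted p = 0.000628). Rpl11 had 3157, 3510.0, 3366 and 3244 at 2 days off, against 6222, 5580.3, 5245 and 4307 at 2 weeks on, again without overlap (log2 change -0.67 ± 0.11, SE, adjusted p = 0.000811).

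The remaining 15 calls ran between a log2 change of -0.56 in Rpl37a and -0.32 in Rpl10a and Rps14. They also took in Rps10, Rps20, Rpl6, Rpl8 and Rps7. The P stalk, the large-subunit arm that recruits elongation factors, was not called: its base Rplp0 had a log2 change of -0.14 ± 0.12 and Rplp2 of -0.28 ± 0.10 (SE) (adjusted p = 0.459 and 0.0707). Rpl3l (-0.44), Rps27l (-0.29), Rps27 (-0.11) and Rps6 (-0.38) were also not called, and Rpl12, a protein at the base of the stalk, was the 1 member above 0, at 0.18. With the Actb ratio as a covariate the count was 15 and the median -0.323, and without heart 1 at 2 weeks on it was 14 with a median of -0.311. Without probe sets whose ID ends in _x_at or _s_at, whose probes can match several transcripts, 13 members were called. The call of Rpl37a was lost there, and also when the probe sets of a gene were averaged. For Rpl10a and Rps14 the calls were lost in 10 of 19 and 10 of 18 alternatives.

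**Figure D3:**
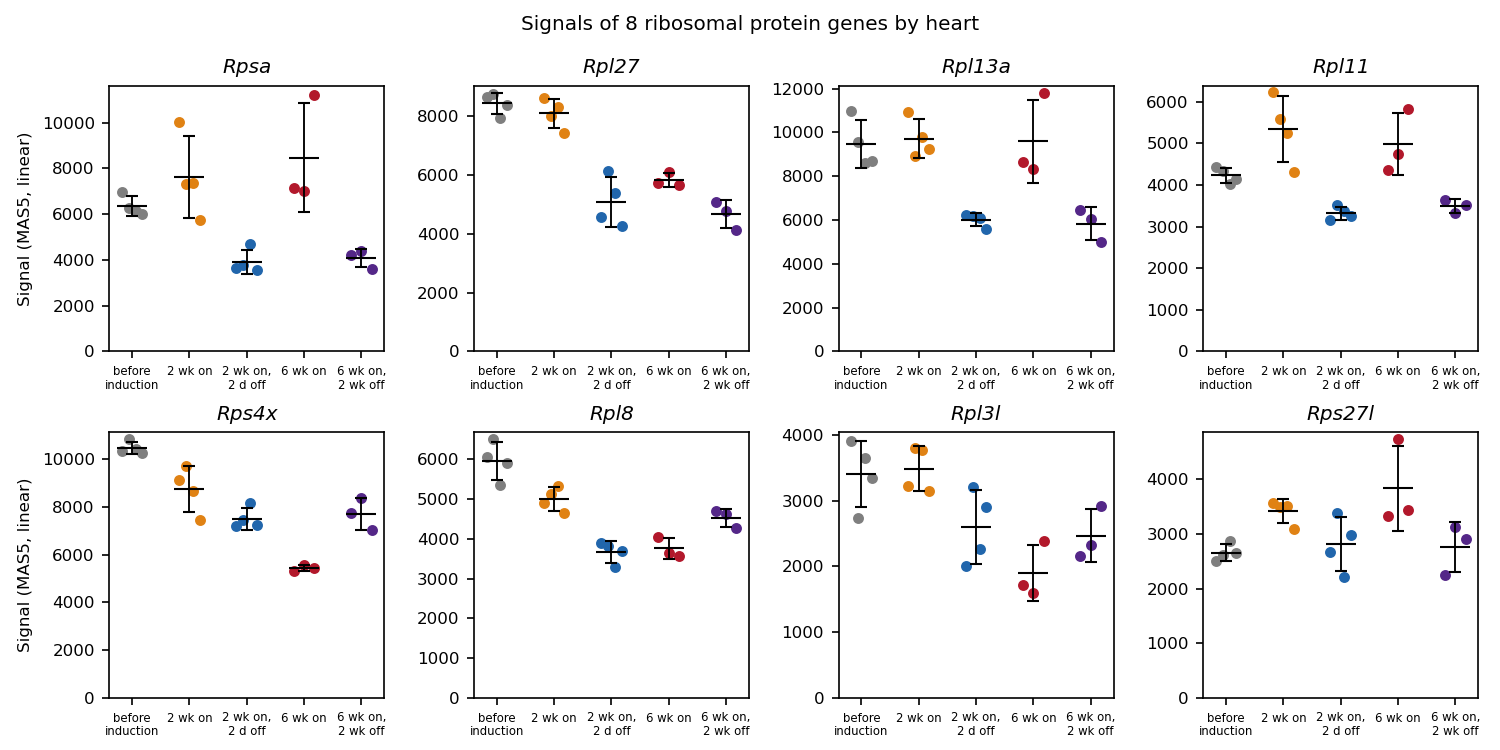
Signals of 8 members on chip 430A, on a linear scale that starts at 0. Points are single hearts, and bars give the mean and SD of each stage. Rpsa, Rpl27, Rpl13a and Rpl11 were lower at 2 days off than at 2 weeks on without overlap, and Rps4x had its lowest 3 signals at 6 weeks on.

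The hearts at 2 days off were also below the hearts before induction. Here 16 members fell and 0 rose, against 2.7% of chip genes that fell and 2.31% that rose. Members had a median log2 change of -0.397, against -0.007 over the chip. The 4 repressed hearts lay below the 4 hearts before induction in 33 of 42 members, against 7.68% of the chip's genes. Because 2 days off also stands in the comparison with 2 weeks on, both share these hearts, and 12 members were called lower in both. The share of chip genes called lower in both was not counted.

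Rpl27 led by size, with 4558, 6119.7, 5397 and 4264 at 2 days off, against 8644, 8752, 7938 and 8390.2 before induction, or 0.603 times its mean there (log2 change -0.74 ± 0.11, SE, adjusted p = 0.000861). Rpl8, which lies beside the peptidyl transferase centre, had 3905, 3824, 3287 and 3694 at 2 days off, against 6064, 6509.8, 5347 and 5896 before induction. The log2 change was -0.69 ± 0.09 (SE, adjusted p = 0.000479), and the lowest heart before induction was well above the highest repressed heart. Rpsa changed by -0.69 ± 0.16, Rpl13a by -0.64 ± 0.12 and the small-subunit protein Rps10 by -0.62 ± 0.12 on the log2 scale (SE), with adjusted p of 0.0168, 0.00514 and 0.00553. Rpl37, at -0.52 ± 0.14 (SE, adjusted p = 0.0314), completed the 6 largest falls.

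Rpl3l had a log2 change of -0.40 ± 0.16 and Rplp0 of -0.28 ± 0.12 (SE), and neither passed (adjusted p = 0.16 and 0.204). Rps27l averaged 2811 ± 494 at 2 days off and 2660.0 ± 153 before induction (SD, n = 4 each). Rpl11 (-0.35), Rplp2 (-0.30), Rps27 (-0.23) and Rps6 (-0.32) were not called. The count of 16 was 10 without heart 1 and 8 without heart 2 before induction, 9 without heart 1, 9 without heart 2 and 6 without heart 4 at 2 days off. It was 7 without both hearts before induction that had Xist signal and 16 when heart 3 at 6 weeks on, which enters the shared spread, was left out too. Under the common median 9 members were called, and 10 with the Actb ratio as a covariate. The median stayed between -0.423 and -0.331 when any 1 heart was left out, and was -0.260 with quantile normalization.

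At 6 weeks of Akt1 the members called by their brightest probe set were lower with 1 exception. Compared with the hearts before induction, 12 members fell and 1 rose, where 11.7% of chip genes fell and 9.34% rose. The median log2 change was -0.184 over the members and -0.077 over the chip, and 30 of 42 were below 0. Among the small subunit 4 of 20 fell and 1 rose, and among the large subunit 8 of 22 fell. These values rest on the scaling of the arrays. With arrays scaled to a common median in place of a common trimmed mean, the median of all genes moved to 0.117, the member median to 0.023, and 4 members fell and 2 rose. That scaling also turned the share of higher among called genes of the series to 76.9%, against 48.2% with the trimmed mean.

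Rps4x, an X-linked protein of the small subunit, had 3 nearly equal signals of 5316, 5576 and 5426 at 6 weeks on, against 10348, 10837, 10409.9 and 10236 before induction. Its mean was 0.52 times that before induction, a log2 change of -0.94 ± 0.10 (SE, adjusted p = 6.95e-06). Rpl27a, a large-subunit protein measured by a dim probe set, had 86, 75 and 194 at 6 weeks on, against 362, 222, 252 and 218 before induction, with heart 3 well above the other 2. Its log2 change was -0.94 ± 0.22 (SE, adjusted p = 0.00531). The muscle paralogue Rpl3l had 1723, 1600.3 and 2394 at 6 weeks on, against 3917, 2739, 3646 and 3342 before induction, without overlap. Its log2 change was -0.83 ± 0.17 (SE, adjusted p = 0.0025). Rpl8 had 4055, 3645 and 3574 at 6 weeks on, against 6064, 6509.8, 5347 and 5896 before induction (log2 change -0.66 ± 0.10, SE, adjusted p = 0.000233).

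The calls of Rps4x, Rpl27a, Rpl3l and Rpl8 held in every alternative run for them, the common median included. The P stalk base Rplp0 had 9708, 9545 and 7330.4 at 6 weeks on, against 11899.6, 14466, 13689 and 12603 before induction (log2 change -0.58 ± 0.13, SE, adjusted p = 0.00518), and its partner Rplp2 had a log2 change of -0.15 ± 0.11 (SE, adjusted p = 0.351). Rps15, a protein near the decoding site, had a log2 change of -0.56 ± 0.12 (SE) with an adjusted p of 0.00382. The other falls were smaller, with log2 changes of -0.53 in Rpl4, -0.53 in Rpl27, -0.52 in Rpl7, -0.43 in Rps10, -0.43 in Rps9 and -0.31 in Rpl7a. For these 8 members, Rplp0 and Rps15 included, the call was lost under the common median. The calls of Rps15, Rpl27, Rps10 and Rps9 were also lost when the probe sets of a gene were averaged.

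By the brightest probe sets, Rps27l was the 1 member that rose at 6 weeks. It had 3332, 4730.5 and 3439.7 at 6 weeks on, against 2502, 2613, 2868 and 2656 before induction, with all 3 induced hearts above the others (log2 change 0.50 ± 0.15, SE, adjusted p = 0.0222). The call was lost without heart 2 at 6 weeks on and without both hearts before induction that had Xist signal, also with heart 3 at 6 weeks on left out too. It was lost as well with quantile normalization and with only these groups in the fit. Its paralogue Rps27 had a log2 change of -0.33 ± 0.35 (SE, adjusted p = 0.526). Rpsa, with 7158, 7036 and 11215 at 6 weeks on, against 6971, 6276, 6119.5 and 5997 before induction, was not called (log2 change 0.38 ± 0.17, SE, adjusted p = 0.124). Heart 3 at 6 weeks on was the highest of the 18 hearts for Rpsa. Rpl11 (0.22) and Rps6 (0.25) were not called. Without heart 3 11 members fell and 1 rose, with a median of -0.252, and without it and both hearts with Xist signal 6 fell and 0 rose.

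Between 6 and 2 weeks of induction, 7 members fell and 0 rose, where 3.83% of chip genes fell and 3.12% rose. Over the members the median was -0.188 (log2), against -0.032 over the chip. Rpl3l had 1723, 1600.3 and 2394 at 6 weeks on, against 3224, 3798, 3769.5 and 3154 at 2 weeks on, so that its highest heart at 6 weeks was below its lowest at 2 weeks. The log2 change was -0.87 ± 0.17 (SE, adjusted p = 0.00619). Rps4x had 5316, 5576 and 5426 at 6 weeks on, against 9112, 9725, 8658 and 7454 at 2 weeks on (log2 change -0.67 ± 0.10, SE, adjusted p = 0.000885).

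The other 5 members called at 6 weeks on over 2 weeks on were Rpl27a at -0.77 (with overlapping groups), Rpl7 at -0.49, Rpl27 at -0.47, Rps19 at -0.45 and Rpl8 at -0.41. Only the calls of Rpl3l and Rps4x held in all alternatives run for this comparison. The count was 3 without heart 2 and 3 without heart 3 at 2 weeks on, and 4 without heart 1 and 4 without heart 2 at 6 weeks on. It was 2 when only these groups entered the fit and 2 under the common median. Rplp0 (-0.44), Rplp2 (-0.13), Rps27 (-0.21), Rps27l (0.15), Rpl11 (-0.10), Rpsa (0.15) and Rps6 (0.19) were not called.

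After 2 weeks of repression that followed 6 weeks of induction, 6 members fell and 1 rose relative to 6 weeks on. Of the chip genes 7.74% fell and 9.99% rose. The median log2 change was -0.214 over the members and 0.054 over the chip, and 30 of 42 members were below 0. Rpsa again had the largest fall, with 4212, 4411 and 3625 at 2 weeks off, against 7158, 7036 and 11215 at 6 weeks on. Its mean was 0.482 times that at 6 weeks on (log2 change -1.01 ± 0.19, SE, adjusted p = 0.00125), and this call held in all 18 alternatives run for it, which include leaving out heart 3. Rpl35 had 4816, 5422 and 4399.9 at 2 weeks off, against 7179, 7015 and 11739 at 6 weeks on, where heart 3 was far above the other 2 (log2 change -0.78 ± 0.19, SE, adjusted p = 0.00815).

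Rpl13a had 6453, 6063 and 4987 at 2 weeks off, against 8669, 8330.5 and 11782 at 6 weeks on (log2 change -0.70 ± 0.14, SE, adjusted p = 0.00225). Rps20, Rpl11 and Rps27l changed less, with log2 changes of -0.54 ± 0.18, -0.49 ± 0.13 and -0.46 ± 0.16 (SE) and adjusted p of 0.044, 0.0122 and 0.0492. By the brightest probe sets, the 1 member that rose was Rps4x. It had 7734, 8369.9 and 7017 at 2 weeks off, against 5316, 5576 and 5426 at 6 weeks on, without overlap (log2 change 0.50 ± 0.11, SE, adjusted p = 0.00438). Under the common median its call was lost. Rpl3l had 2161, 2322 and 2924 at 2 weeks off, against 1723, 1600.3 and 2394 at 6 weeks on, and the groups overlapped (log2 change 0.37 ± 0.19, SE, adjusted p = 0.172).

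This comparison depended on single hearts at 6 weeks on, on the scaling and on the groups fitted. Without heart 3, whose Actb ratio was 3.71, only Rpsa and Rpl13a fell and Rps4x rose, with a median of -0.114, and without heart 1 the count was 11. With the Actb ratio as a covariate 2 fell and 2 rose with a median of -0.086, and with quantile normalization 7 fell and 5 rose with a median of -0.095. Under the common median the median was -0.363, and with only these groups in the fit 1 member was called. Rplp0 (0.21), Rplp2 (-0.15), Rps27 (-0.07) and Rps6 (-0.54) were not called.

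Relative to the hearts before induction, the 2-weeks-off hearts had 7 members lower and 0 higher, where 1.69% of chip genes fell and 1.66% rose. Their median was -0.364 (log2), against -0.012 over the chip, and 40 of 42 were below 0. The repressed hearts lay below all 4 hearts before induction in 31 of 42 members, against 8.2% of the chip's genes. Rpl27 had 5094, 4788 and 4139 at 2 weeks off, against 8644, 8752, 7938 and 8390.2 before induction, 0.554 times the mean there (log2 change -0.85 ± 0.12, SE, adjusted p = 0.000797). Rpl27 kept its call in all 20 alternatives run for it. Rpl13a had 6453, 6063 and 4987 at 2 weeks off, against 10967, 9569, 8594 and 8703 before induction (log2 change -0.69 ± 0.13, SE, adjusted p = 0.00654).

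Rps19 (-0.53), Rps7 (-0.48), Rps4x (-0.44), Rpl7a (-0.41) and Rpl8 (-0.39) were the other members called at 2 weeks off over before induction. Rpsa, at -0.63 ± 0.17, Rpl3l, at -0.46 ± 0.17, and Rplp0, at -0.37 ± 0.13 (log2 change and SE), did not pass (adjusted p = 0.0505, 0.157 and 0.139). Rpl11 (-0.27), Rplp2 (-0.31), Rps27 (-0.41), Rps27l (0.04) and Rps6 (-0.28) were not called either. The count was 3 without heart 1, 3 without heart 2 and 4 without heart 3 before induction, 3 without heart 1 and 2 without heart 3 at 2 weeks off, and 3 without both hearts that had Xist signal (7 without heart 3 at 6 weeks on as well). Under the common median it was 1, while the member median stayed at -0.306.

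The early and the late response to repression share no heart, so they can be set side by side. Below 0 were 41 members early (2 days off over 2 weeks on) and 30 late (2 weeks off over 6 weeks on), and all 30 were below 0 early too. Across the 42 members the log2 changes had a Pearson r of 0.65, a value across genes that are not independent. Rpsa, Rpl35, Rpl13a, Rpl11 and Rps20 were the 5 members called lower in both, and the share of chip genes called lower in both was not counted. Without heart 3 at 6 weeks on the late calls of Rpl35, Rpl11 and Rps20 were lost. Without _x_at and _s_at probe sets both calls of Rpl13a and of Rps20 and the late call of Rpl35 were lost.

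The difference between the responses, late minus early, was tested in the same fit over all genes and passed for 2 members. Rpl8 had a log2 change of 0.27 ± 0.11 late and -0.44 ± 0.09 early (SE), a difference of 0.71 ± 0.14 (SE, adjusted p = 0.0244). Rps4x had 0.50 ± 0.11 late and -0.21 ± 0.10 early (SE), with a difference of 0.71 ± 0.15 (SE, adjusted p = 0.0262). Of the chip's genes 0.485% had a higher and 0.453% a lower difference by that test. The median difference was 0.158 over the members and 0.025 over the chip. For the members it was 0.297 without heart 3 at 6 weeks on and 0.258 with the Actb ratio as a covariate. Both calls were near the limit: the Rpl8 difference stayed between 0.65 and 0.76 but lost its call without heart 3 at 2 weeks on, without heart 1 or heart 2 at 2 weeks off, and under the common median (adjusted p = 0.121). The Rps4x difference stayed between 0.65 and 0.78 and lost its call under the common median (adjusted p = 0.0888). Its call was also lost when heart 2 or 3 at 2 weeks on, heart 1, 2 or 4 at 2 days off, heart 1 at 6 weeks on, or heart 1 or 2 at 2 weeks off was left out. Length of induction, length of repression and age all differ between both responses and cannot be told apart.

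**Figure D4:**
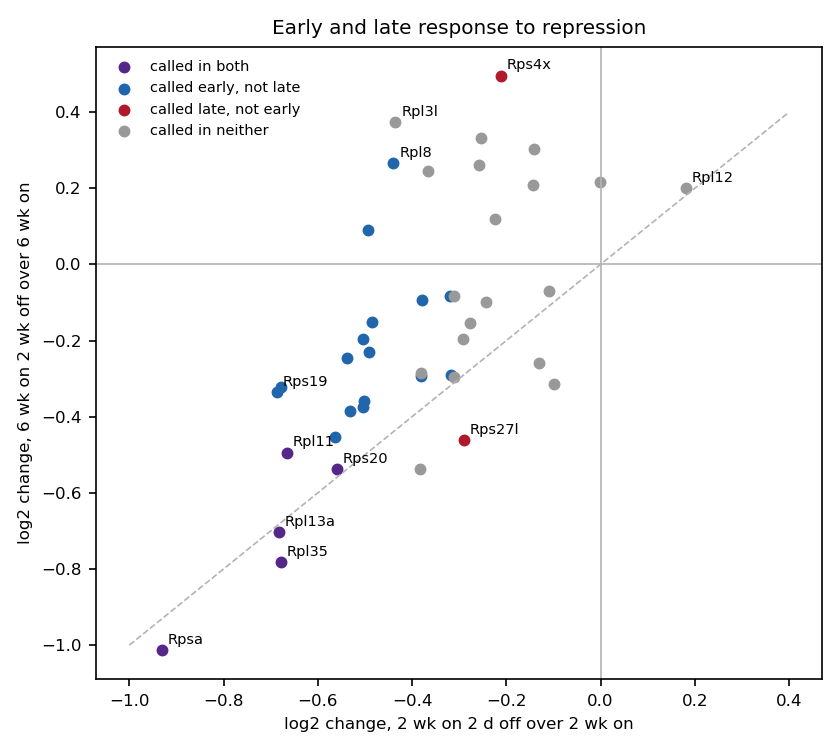
Each point is 1 of the 42 members. The horizontal axis gives the log2 change at 2 days off over 2 weeks on, and the vertical axis that at 2 weeks off over 6 weeks on. The dashed line marks equal changes, colours give the calls in either comparison, and Rpsa lies farthest to the lower left while Rps4x is highest.

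Several probe sets for 1 gene allow a check within the chip. Past the filter were 84 probe sets of the members, of which 3 lie on chip 430B, and 19 members had more than 1. At 2 days off over 2 weeks on, 42 of the 84 probe sets fell, 0 rose and 78 were below 0. In no comparison was a member called higher by one probe set and lower by another. Counts of members called by any probe set were larger than those by the brightest. They were 2 against 0 at 2 weeks on over before induction and 18 against 13 at 6 weeks on over before induction. They were 10 against 7 at 6 over 2 weeks on and 14 against 7 at 2 weeks off over 6 weeks on. Probe sets called higher numbered 1, 4, 1 and 3 in these comparisons. The shares of all chip genes called by any probe set, and of all kept probe sets called, were not counted. All probe sets of a gene had the same sign in 14 of the 19 genes at 2 days off over 2 weeks on and in 4 of 19 at 2 weeks on over before induction. Rps10, a small-subunit protein, had 5 probe sets, of which 4 fell at 2 days off over 2 weeks on with log2 changes of -0.49 to -1.67. At 6 weeks on over before induction they ran between -0.43 (adjusted p = 0.0216) in the brightest and 1.08 (adjusted p = 0.0811) in the dimmest, so its call there rests on the brightest. Of the 3 probe sets of Rps20, the bright pair fell at 2 days off over 2 weeks on (-0.56 and -0.78) and the dim one, with a mean of 118, had 0.34 (adjusted p = 0.189). For Rpl13a the second-brightest probe set, with a mean of 5102, had -0.15 (adjusted p = 0.321) in that comparison. It had -0.14 (adjusted p = 0.437) at 2 weeks off over 6 weeks on. The dimmest one, with a mean of 476, fell in both, by -0.64 (adjusted p = 0.00789) and -0.87 (adjusted p = 0.00241).

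Genes around the ribosome were described by lists chosen with earlier results of these data known. Values are log2 changes from the same fit, and each gene named passed its test in that comparison. Of the genes of chip 430A, 7.87% fell and 7.36% rose at 2 days off over 2 weeks on. The proteins of the mitochondrial ribosome, which translates the genes of mitochondrial DNA, had 38 of 76 lower and 2 higher at 2 days off over 2 weeks on, with a median of -0.341. Among them were Mrpl51 at -0.74, Mrpl45 at -0.75 and Mrpl19 at -0.81. Of 49 ribosome biogenesis factors 2 fell and 1 rose in that comparison, with a median of -0.053. The falls were Emg1, a methyltransferase of 18S ribosomal RNA, at -0.65, and Nhp2, a protein of the H/ACA particles that guide pseudouridylation, at -0.66. The helicase Ddx21 had 0.58 there. At 6 weeks on over before induction 6 of the 49 biogenesis factors rose and 6 fell, near the 9.34% and 11.7% of chip genes. Among them were Nop2 at 1.06, Imp3 at -0.87 and the nucleolar chaperone Npm1 at -0.73. Npm1 was also lower at 2 days off (-0.48) and 2 weeks off (-0.43) over before induction.

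RNA polymerase I and its factors, which make ribosomal RNA, had 2 of 14 higher and 1 lower at 2 days off over 2 weeks on, where 7.36% of chip genes rose and 7.87% fell. These were the factors Taf1b (0.57) and Ubtf (0.36) and the polymerase subunit Polr1e (-0.70). Other TOP messenger RNAs, many of them for translation factors, had 2 of 15 higher and 2 lower in that comparison, with a median of -0.125. Lower were Eef1d (-0.56) and Eef1b2 (-0.42), which recharge the elongation factor Eef1a, and higher was the initiation factor Eif4b (0.38). At 6 weeks on over before induction 5 of the 15 fell and 0 rose, where 11.7% of chip genes fell and 9.34% rose. Among the falls were Hnrnpa1 at -1.09, Eef1a1 at -0.53 and Eif3e at -0.44. At 2 weeks on over before induction Eef2, the translocation factor, was the 1 called, at -0.41.

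Regulators of mTORC1 were also measured. At 2 weeks on over before induction 4 of 18 fell and 1 rose, where 4.17% of chip genes fell and 4.67% rose. Ddit4, an inhibitor of mTORC1, had 0.90 and Tsc2, the inhibitor that Akt phosphorylates, -0.80. At 2 days off over 2 weeks on these turned, to -1.14 for Ddit4 and 0.93 for Tsc2. Ddit4 was at 2.90 at 6 weeks on over before induction and at -3.69 at 2 weeks off over 6 weeks on. Among 10 regulators of ribosomal protein gene transcription, 4 fell and 0 rose at 2 weeks on over before induction. The Myc partner Max had -0.64, the Myc antagonist Mnt -0.61 and Mxi1 -0.55. At 2 days off over 2 weeks on 3 of the 10 rose and 1 fell, where 7.36% of chip genes rose and 7.87% fell. Max and Mnt had 0.54 and 0.54 there, while Mxd4 had -0.66. Mxd4 was at 0.73 at 6 weeks on over before induction and at -0.99 at 2 weeks off over 6 weeks on. Mycn had -0.93 at 6 weeks on over before induction and 1.30 at 2 weeks off over 6 weeks on.

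The non-member genes whose profile was most like the median of the members over the 18 hearts, among 9234 genes of chip 430A, were Ndufb10 (r = 0.986), Ndufc2 (r = 0.937) and Etfb (r = 0.935). Ndufb10 and Ndufc2 are subunits of respiratory complex I and Etfb is a subunit of the electron transfer flavoprotein. At 2 days off over 2 weeks on their log2 changes were -0.90 ± 0.14, -0.72 ± 0.13 and -0.56 ± 0.14 (SE). At 2 weeks on over before induction the changes were 0.06, 0.16 and 0.10. These genes were picked for their likeness to the members over the same hearts. Their changes therefore follow from the choice and carry no test.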

How the data were processed

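Biotin-labelled total RNA from 18 mouse hearts was measured on a pair of Affymetrix chips (430A, 430B). The deposited values are linear intensity signals per probe set from MAS5, per the submitters' processing notes (version not given in the sources used here), and the 2% trimmed mean is nearly equal on all arrays of a chip (500.2 on 430A and 122.5 on 430B), so the authors' scaling removes any change shared by most genes. The number of arrays limits the precision, and no detection calls were used. Here log2(signal + 10% of the trimmed mean) was fitted per chip over all probe sets with a mean of at least 20% of the trimmed mean, with limma 3.58.1 in R 4.3.3 (lmFit, eBayes with trend), 5 group means and 1 shared spread. Fold changes on this scale understate those of dim genes. Adjusted p values are Benjamini-Hochberg over a chip, called under 0.05, and the brightest kept probe set on chip 430A stood for a gene. Gene names come from GEO's platform annotation, which can be old. All 42 symbols equal the RefSeq symbol of their gene ID.

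Members and lists were chosen with earlier results of these data known. Genes were named by rule: all called members where at most 12 were called, otherwise the 6 largest rises and falls, the stalk, 5S and paralogue members, those nearest the filter, up to 3 called genes per list and comparison, Akt1, and the 3 genes most like the median. Others (Rpl4 at 2 weeks, the lesser calls, Rpl6) were named after their values were seen. The test of late against early repression was added after the data were seen. The fit was tested on simulated data. Promoter windows are from RefSeq. Alternatives were other offsets, filters, scalings, probe set rules, fits and left-out hearts. Replicate numbers were not used as pairs: of 48 same-numbered pairs 5 correlated over 0.1 (range -0.156 to 0.325).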

Additional observations from a re-analysis of the deposited data

Results flagged for a closer look

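In groups of 4 hearts, a signal was marked by Dixon's test (gap to the nearest heart over the group's range, at its usual critical value), which chance does for about 1 in 20 groups. Of 126 groups 10 were marked. Heart 1 before induction was high for Rpl35 (8015, others 6662 to 6869), Rpl38 (19106, others 16222.5 to 16710), Rplp2 (12841, others 11682 to 11810) and Rps9 (7995, others 6092 to 6404). At 2 weeks on, heart 1 was high for Rps10 (16744, others 12006 to 12733), heart 2 for Rps27 (928.5, others 191 to 226), and heart 4 was low for Rps27l (3086.5, others 3496 to 3562). At 2 days off, heart 3 was high for Rpl19 (9144, others 6766.5 to 6882), heart 2 for Rps28 (10331, others 8760 to 9026.5), and heart 4 was low for Rps15 (6270, others 7448 to 7522).

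The late and the early response to repression differed by a test of the difference itself for Rpl8 and Rps4x, each with a log2 difference of 0.71, late minus early. Both lost their call in some of the alternatives, which were chosen after seeing the data.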

How the results depend on the processing

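Of 71 calls of members over the 7 comparisons, 22 were kept in every alternative run for them. Scaled to a common median, 1 member was called at 2 weeks off over before induction (median -0.306), 9 at 2 days off over before induction, 6 at 6 weeks on over before induction (median 0.023, reversed), 2 at 6 over 2 weeks on, and the median was -0.363 at 2 weeks off over 6 weeks on. The share of higher among called genes of the series moved from 56.0% to 71.9%, 49.4% to 29.8%, 48.2% to 76.9%, 45.5% to 69.1%, 56.5% to 36.5% and 55.4% to 72.8% at 2 weeks on over before, 2 days off over 2 weeks on, 6 weeks on over before, 6 over 2 weeks on, 2 weeks off over 6 weeks on and 2 weeks off over before. With quantile normalization counts were 4 at 2 weeks off over before (median -0.219), 3 at 2 weeks on over before and 12 at 2 weeks off over 6 weeks on (median -0.095), and medians were -0.238 at 2 days off over 2 weeks on and -0.260 at 2 days off over before. With the Actb ratio as a covariate counts were 10 at 2 days off over before (median -0.310), 1 at 2 weeks on over before and 4 at 2 weeks off over 6 weeks on (median -0.086), and the median at 2 weeks off over before was -0.288. Fitting only the groups compared gave 2 at 6 over 2 weeks on and 1 at 2 weeks off over 6 weeks on. With no filter 4 were called at 2 weeks off over before, and without _x_at and _s_at probe sets 13 at 2 days off over 2 weeks on. Without both hearts that had Xist signal counts were 3 at 2 weeks off and 7 at 2 days off over before. Without these and heart 3 at 6 weeks on, chosen after seeing the data, they were 6 at 6 weeks on over before, 4 at 6 over 2 weeks on and 3 at 2 weeks off over 6 weeks on. Leaving out 1 heart gave 0 to 1 calls (median -0.046 to 0.055) at 2 weeks on over before, 14 to 28 (-0.432 to -0.311) at 2 days off over 2 weeks on, 6 to 12 (-0.423 to -0.331) at 2 days off over before, 10 to 12 (-0.252 to -0.116) at 6 weeks on over before, 3 to 9 (-0.272 to -0.134) at 6 over 2 weeks on, 3 to 11 (-0.281 to -0.114) at 2 weeks off over 6 weeks on and 2 to 6 (-0.377 to -0.313) at 2 weeks off over before. Averaging probe sets turned Rps10 to 0.123 at 6 weeks on over before and to -0.506 at 2 weeks off over 6 weeks on, and leaving out _x_at and _s_at probe sets turned Rps20 to 0.338 at 2 days off over 2 weeks on and Rpl13a to -0.420 at 6 weeks on over before. The cause was not tested in these cases. With the replicate number as a block 19, 14, 14, 8, 6, 9 and 0 members were called (2 days off over 2 weeks on and over before, 6 weeks on over before and over 2 weeks on, 2 weeks off over 6 weeks on and over before, 2 weeks on over before), each within 1.5 times the count without it.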
